A study of Mus musculus with 6 samples.

Results

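The miR-34 and miR-449 family was followed in small RNA libraries of the adult mouse hippocampus. Its members were all deposited rows of mature miRNAs named miR-34a, miR-34b, miR-34c, miR-449a, miR-449b or miR-449c with an arm suffix (-5p or -3p, the strands cut from the ascending and descending side of the hairpin). This gave 10 rows from 5 hairpins, out of 2035 miRNA rows and 109108 features listed. A row named miR-449b without an arm suffix falls outside the rule.

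All mice were male C57BL/6 animals aged 3 months, homozygous for floxed Dicer1 (Dicer1 flox/flox), and all were killed 3 weeks after tamoxifen. Dicer1 codes for the enzyme that trims miRNA precursors to their mature form. The Dicer1-ifKO mice also carried CaMKIIa-creERT2, a tamoxifen-inducible Cre recombinase driven in excitatory forebrain neurons, and cells where it is not active keep Dicer1. The WT mice carried no such transgene. There were 3 Dicer1-ifKO and 3 WT libraries, each made from RNA pooled from 3 mice, and p-values measure the spread between pools. In bulk tissue, fewer cells of a type and less RNA per cell cannot be told apart.

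The family takes its name from miRNAs whose 5p arms share a seed, the bases near the 5′ end that pair with target mRNAs. miR-34a and the miR-34b/c cluster are known as direct transcriptional targets of p53 and slow the cell cycle, and miR-34c has been studied in the hippocampus for its effect on memory. The miR-34b/c and miR-449 clusters are known for high levels in multiciliated epithelia, where they act together in the making of motile cilia.

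The mature sequences below are shown because the shared seed defines the family and the remaining bases tell its rows apart. They are from RefSeq (GRCm38.p6), which matched by name and position 9 of the 10 rows, all but miR-34c-5p, and are written 5′ to 3′ with bases 2 to 8 in capitals.
miR-34a-5p: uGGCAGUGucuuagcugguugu
miR-34b-5p: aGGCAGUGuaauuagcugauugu
miR-449a-5p: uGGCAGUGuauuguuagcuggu
miR-449c-5p: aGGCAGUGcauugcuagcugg
miR-34b-3p: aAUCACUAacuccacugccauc
miR-34c-3p: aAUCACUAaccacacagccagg
miR-34a-3p: aAUCAGCAaguauacugcccu
miR-449a-3p: cAGCUAACaugcgacugcucuc
miR-449c-3p: cAGUUGCUagcugcacuacccu
Among 1679 mature names in that table, the seed GGCAGUG occurred in 4, which were the 4 5p arms printed here. miR-34c-5p was not among the names searched, and is known as a member of the same seed family. The 3p arms fell into another shared seed, AUCACUA for miR-34b-3p and miR-34c-3p, and 3 seeds held by 1 name each. miR-34b-3p and miR-34c-3p had the same base at 17 of 22 positions. The substitutions were U11C, C12A, U16A, U21G and C22G, with the miR-34b-3p base first and positions counted from the 5′ end. How the submitters' counting treated reads with several alignments is not given in the sources used here. Whether reads were split between these rows was not tested. miR-34b-5p and miR-34c-5p could not be compared in this way, since no sequence of miR-34c-5p was at hand. How far their rows share reads was not tested.

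The rows lie at 3 places (GRCm38). The miR-34a arms are at chr4:150068473-150068494 and chr4:150068517-150068537 on the plus strand, in no other annotated gene of GENCODE M21. The miR-34b/c arms lie within 589 bases on the minus strand of chromosome 9: miR-34c-3p at chr9:51103044-51103065, miR-34c-5p at chr9:51103076-51103098, miR-34b-3p at chr9:51103574-51103595 and miR-34b-5p at chr9:51103610-51103632. In GENCODE M21 they fall inside an intron of Btg4, which is on the opposite strand, and no other deposited row covers them. The miR-449 rows span 1603 bases of the plus strand of chromosome 13, from miR-449c-5p at chr13:113036008-113036028 to miR-449a-3p at chr13:113037589-113037610, in an intron of Cdc20b, a gene of multiciliated cells.

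The miRNA rows together held 2318205 to 2739366 counts in Dicer1-ifKO libraries and 2724752 to 3179363 counts in WT libraries. Levels are given as CPM, counts per 1000000 of the summed counts of all tested features after TMM scaling. Features overlap and a read can enter several of them, so CPM is not a share of reads. Library preparation can capture different miRNAs with different efficiency, so a level ratio between arms is a ratio of counts.

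In both genotypes most counts of the family came from 1 arm, miR-34c-5p. It held 2737, 2114 and 2271 counts in Dicer1-ifKO replicates 1, 2 and 3, and 1972, 1641 and 2266 counts in WT replicates 1, 2 and 3. Of the counts of all 10 rows, its share ran from 84.2% to 88.5% in Dicer1-ifKO libraries and from 82.2% to 88.7% in WT libraries. Of the counts of the family's 5p arms, it took 94.98% to 95.74% in Dicer1-ifKO and 95.04% to 95.49% in WT. The 95% exact binomial intervals of these 5p shares lay between 94.0% and 96.5% in Dicer1-ifKO and between 94.0% and 96.3% in WT, and cover counting error only. By mean level over the 6 libraries, miR-34c-5p ranked 108 of 546 tested miRNA rows, miR-34b-3p 253, miR-34a-5p 370, miR-34b-5p 406 and miR-34c-3p 413.

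The comparison of genotypes asks how these miRNAs stood after Dicer1 was inactivated in excitatory neurons. Of the 10 rows, 5 passed the filter on low counts and were tested, and 0 of them fell or rose in Dicer1-ifKO (edgeR's quasi-likelihood test at a threshold of 0.05, with p-values adjusted by Benjamini-Hochberg over 6539 features). Of all 546 tested miRNA rows, 6.59% were called lower and 0% higher. Without adjustment, 0 of the 5 arms had a p under 0.05, against 31.1% of miRNA rows lower and 2.01% higher, and by DESeq2 0 passed, against 6.41% lower and 0% higher. The count of background calls changed with the library left out: 36 rows were lower with all libraries, 1 without Dicer1-ifKO replicate 2 and 70 without WT replicate 1. All 5 tested arms had log2 changes above 0, from 0.16 to 0.33 with a median of 0.31. Over all tested miRNA rows 24.5% lay above 0 and 75.5% below, and the median was -0.24.

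miR-34c-5p, the leading arm, stood at 66.0, 39.8 and 48.4 CPM in Dicer1-ifKO replicates 1, 2 and 3, and at 40.3, 34.3 and 48.8 CPM in WT replicates 1, 2 and 3. Dicer1-ifKO replicate 1 was the highest library and WT replicate 2 the lowest, and the groups overlapped. The means were 51.4 ± 13.4 CPM in Dicer1-ifKO and 41.2 ± 7.28 CPM in WT (SD, n = 3 each). By edgeR the log2 change was 0.32 ± 0.20 (SE), which missed the threshold (adjusted p = 0.82). Its 95% interval ran from -0.12 to 0.76. Without Dicer1-ifKO replicate 1 the log2 change was 0.096 (edgeR adjusted p = 0.998). Fitted with the miRNA rows alone, where scaling, spread and adjustment come from the 546 miRNA rows, miR-34c-5p was called higher (log2 0.55, edgeR adjusted p = 0.039). In that fit 2.01% of miRNA rows were called higher and 6.59% lower, and in the other 13 alternatives miR-34c-5p was not called. Among these 13, TMM over the miRNA rows with all 6539 features tested also gave a log2 change of 0.55 (edgeR adjusted p = 0.38).

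miR-34a-5p, made from its own locus, held 74, 59 and 69 counts in Dicer1-ifKO replicates 1, 2 and 3, and 65, 41 and 61 counts in WT replicates 1, 2 and 3. In CPM these were 1.79, 1.11 and 1.47 in Dicer1-ifKO, and 1.33, 0.858 and 1.31 in WT. As with miR-34c-5p, Dicer1-ifKO replicate 1 was highest and WT replicate 2 lowest, with the groups overlapping. The means were 1.46 ± 0.34 CPM in Dicer1-ifKO and 1.17 ± 0.27 CPM in WT (SD, n = 3 each), a log2 change of 0.31 ± 0.24 (SE, edgeR adjusted p = 0.91). Without Dicer1-ifKO replicate 1 or without WT replicate 2 it was 0.14 or 0.15.

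miR-34b-3p, the main arm of its hairpin, stood at 4.51, 4.98 and 4.60 CPM in Dicer1-ifKO replicates 1, 2 and 3, and at 4.68, 4.87 and 3.08 CPM in WT replicates 1, 2 and 3. WT replicate 3 alone was low and the other 5 libraries lay close together. The log2 change was 0.16 ± 0.20 (SE, edgeR adjusted p = 0.95), and 0.019 without WT replicate 3.

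The minor arms of the miR-34b and miR-34c hairpins gave few counts. miR-34b-5p held 55, 32 and 47 counts in Dicer1-ifKO replicates 1, 2 and 3, and 33, 39 and 38 counts in WT replicates 1, 2 and 3, a log2 change of 0.33 ± 0.27 (SE, edgeR adjusted p = 0.93). For miR-34c-3p the counts were 39, 36 and 47 in Dicer1-ifKO and 32, 39 and 35 in WT, a log2 change of 0.23 ± 0.23 (SE, edgeR adjusted p = 0.93). In both arms the groups overlapped, and Dicer1-ifKO replicate 2 was below WT replicate 2. With 1 library left out, the log2 change of miR-34b-5p ran from 0.050 without Dicer1-ifKO replicate 1 to 0.62 without Dicer1-ifKO replicate 2. That of miR-34c-3p ran from 0.115 without Dicer1-ifKO replicate 3 to 0.41 without Dicer1-ifKO replicate 2. Over all tested miRNA rows, 33.9% were lower and 2.01% higher with no overlap between the groups, and 0 of the 5 tested arms were in either class.

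**Figure D1:**
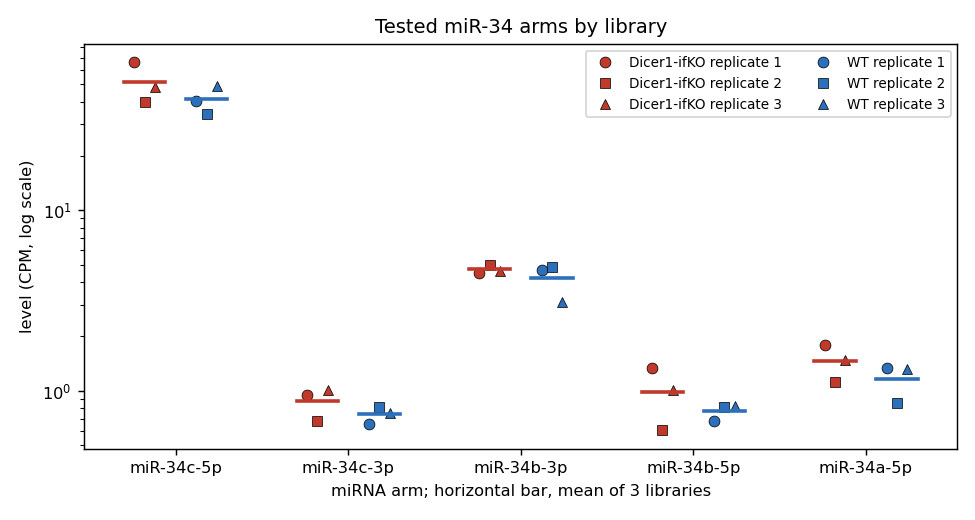
Level of each tested miR-34 arm in every library, in CPM on a log axis, with Dicer1-ifKO libraries in red and WT libraries in blue. miR-34c-5p lies above the other arms in every library, and in each arm the libraries of the genotypes overlap.

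The plot of log2 change against level sets the arms among the other miRNAs. The 36 called rows had log2 changes from -1.63 to -0.61, with a median of -1.07. The 95% intervals of the 5 tested arms had lower bounds between -0.27 and -0.12, so each interval lay above the smallest called fall. That fall is a limit set by the calls in these same data, and intervals reaching below 0 leave room for smaller falls. From 89.4% to 94.0% of tested miRNA rows had a lower log2 change than a given tested arm. This places the arms toward the upper end of the miRNAs, without a call of their own. All 5 arms stayed above 0 in each of 14 alternatives, from 0.019 to 0.62. Arms of 1 hairpin or cluster are not independent, and neither are fits that reuse the same 6 libraries. The distance of the arms from 0 depends on the scaling. With TMM over the miRNA rows, which moved the miRNA median to 0.0013, they ran from 0.37 to 0.56, and 0 of them were called.

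**Figure D2:**
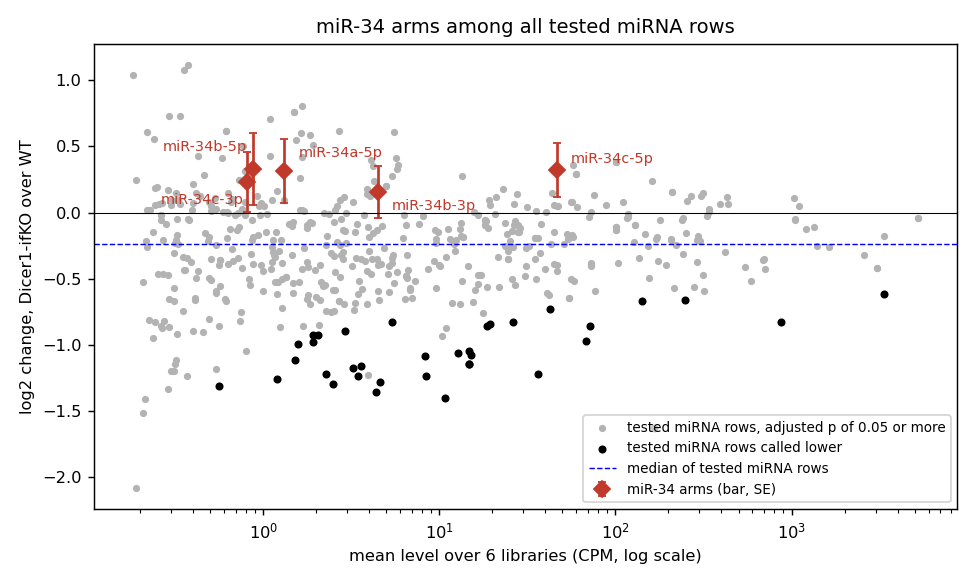
Each point is a tested miRNA row, with its mean level in CPM on a log axis and its log2 change of Dicer1-ifKO over WT. Rows called lower are black, the 5 miR-34 arms are red with their SE, and the dashed line is the median of -0.24. The miR-34 arms lie above 0, at 0.16 to 0.33.

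The base composition of miRNAs ran with the change across rows. Over 482 tested rows with a RefSeq sequence, which are not independent replicates, Spearman's rho of GC content and log2 change was -0.31. Their median GC content was 47.8%. G and C made up 11 of 22 bases in miR-34a-5p and in miR-34c-3p, 10 of 22 in miR-34b-3p and 9 of 23 in miR-34b-5p. The part of GC content in the values of the family was not tested.

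miR-34a and the miR-34b/c cluster were then compared within libraries, where no scaling enters. The 4 arms of the cluster summed to 3018, 2447 and 2581 counts in Dicer1-ifKO replicates 1, 2 and 3, and to 2266, 1952 and 2482 counts in WT replicates 1, 2 and 3. Cluster counts were 40.8, 41.5 and 37.4 times those of miR-34a-5p in Dicer1-ifKO replicates 1, 2 and 3, and 34.9, 47.6 and 40.7 times in WT replicates 1, 2 and 3. The ratio was thus more than 30 to 1 in all libraries, and the WT libraries spanned the range of the Dicer1-ifKO libraries. On the log2 scale miR-34a-5p over the cluster was -5.32 ± 0.08 in Dicer1-ifKO and -5.35 ± 0.22 in WT (SD, n = 3 each). The difference of 0.031 did not pass a two-sided exact permutation test (p = 1, where 3 against 3 libraries cannot give a p below 0.1). Leaving out Dicer1-ifKO replicate 3 or WT replicate 2 turned its sign, to -0.014 and -0.081. In CPM the cluster summed to 57.9 ± 13.6 in Dicer1-ifKO and 46.9 ± 6.34 in WT, and miR-34a-5p and miR-34a-3p together to 1.47 ± 0.32 and 1.20 ± 0.28 (SD, n = 3 each).

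The hairpins of the cluster are thought to come from 1 primary transcript, yet their counts were unequal. The miR-34c hairpin had 11.5, 7.24 and 8.81 times the counts of the miR-34b hairpin in Dicer1-ifKO replicates 1, 2 and 3, and 7.65, 6.18 and 12.7 times in WT replicates 1, 2 and 3. The libraries of each genotype differed among themselves by more than the genotypes did. The log2 ratio was 3.17 ± 0.33 in Dicer1-ifKO and 3.08 ± 0.53 in WT (SD, n = 3 each; two-sided exact permutation p = 0.8, with 0.1 as the smallest possible). Without Dicer1-ifKO replicate 1 or WT replicate 2 the difference of 0.095 turned to -0.079 or -0.13.

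**Figure D3:**
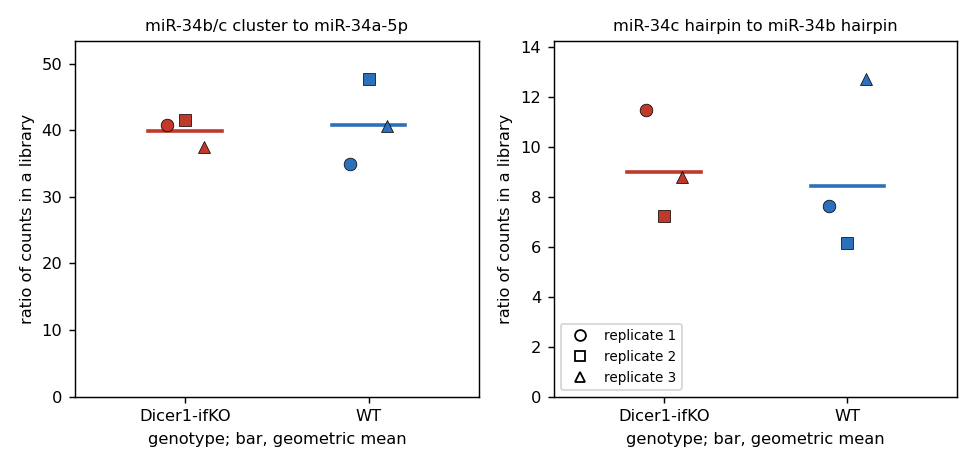
Ratios of counts within each library, by genotype, on linear axes that start at 0, with the miR-34b/c cluster over miR-34a-5p on the left and the miR-34c hairpin over the miR-34b hairpin on the right. In both panels the Dicer1-ifKO libraries lie within the range of the WT libraries.

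Arm use set miR-34b apart from the other hairpins. The hairpins of miR-34a and miR-34b are printed to show where each arm lies, from RefSeq (GRCm38.p6), 5′ to 3′, with both mature arms in capitals and the 5p arm first. They are at chr4:150068454-150068555 on the plus strand and chr9:51103562-51103645 on the minus strand.
Mir34a: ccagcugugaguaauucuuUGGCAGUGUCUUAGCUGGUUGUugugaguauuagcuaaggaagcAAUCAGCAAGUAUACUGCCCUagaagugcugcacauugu
Mir34b: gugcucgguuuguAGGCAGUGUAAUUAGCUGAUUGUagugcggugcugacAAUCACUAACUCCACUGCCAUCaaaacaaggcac
In the miR-34b hairpin, the seed-bearing 5p arm gave 22.7%, 10.8% and 17.9% of the counts in Dicer1-ifKO replicates 1, 2 and 3, and 12.6%, 14.3% and 20.99% in WT replicates 1, 2 and 3. Most counts were therefore of the 3p arm in all 6 libraries. Whether reads of miR-34c-5p entered the miR-34b-5p row was not tested. The exact binomial intervals of Dicer1-ifKO replicates 1 (17.6% to 28.5%) and 2 (7.49% to 14.9%) did not overlap, while those of every other pair of libraries within a genotype did.

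In the miR-34c hairpin the 5p arm gave 98.6%, 98.3% and 98.0% in Dicer1-ifKO replicates 1, 2 and 3, and 98.4%, 97.7% and 98.5% in WT replicates 1, 2 and 3. For miR-34a, of 74, 61 and 70 counts in Dicer1-ifKO libraries 74, 59 and 69 were of the 5p arm, and of 66, 42 and 64 counts in WT libraries 65, 41 and 61. For 0 of 3 hairpins did the 5p share pass a two-sided exact permutation test between the genotypes. The differences were 1.29 percentage points for miR-34a (exact permutation p = 0.4), 1.15 for miR-34b (p = 0.9) and 0.11 for miR-34c (p = 0.7), each with an adjusted p of 0.9 over 3 hairpins, and 0.1 was the smallest p possible. With 1 library left out, the difference for miR-34a ran from 0.38 without WT replicate 3 to 2.15 without Dicer1-ifKO replicate 2. The sign for miR-34b turned without Dicer1-ifKO replicate 1 (-1.65) or WT replicate 1 (-0.54), and that for miR-34c without Dicer1-ifKO replicate 1 (-0.038) or WT replicate 2 (-0.14).

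**Figure D4:**
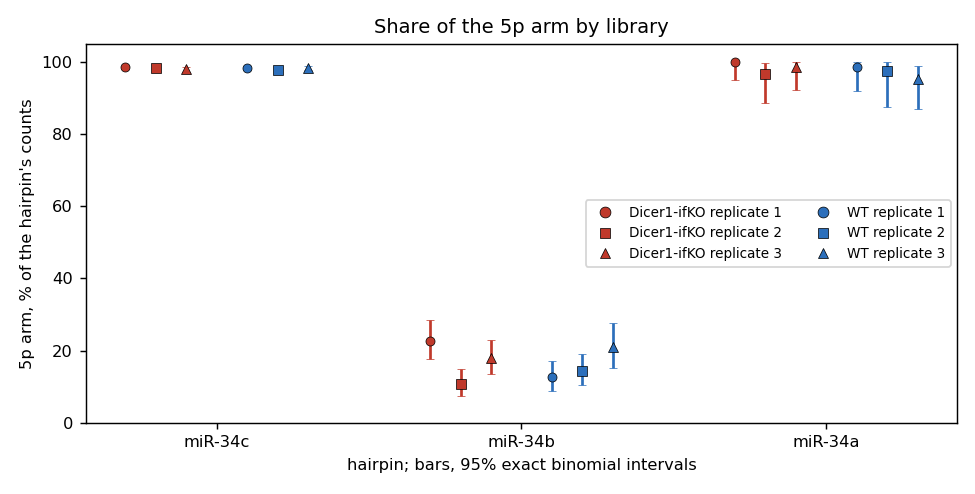
Share of the 5p arm among the counts of each hairpin, in percent, for every library, with Dicer1-ifKO in red and WT in blue and bars for the 95% exact binomial interval. The 5p arm dominates in miR-34c and miR-34a and is the minor arm of miR-34b, at 10.8% to 22.7% in Dicer1-ifKO and 12.6% to 20.99% in WT.

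The 5 rows outside the test were at or near 0. miR-34a-3p, the passenger arm of miR-34a, held 3 counts in Dicer1-ifKO and 5 in WT over all libraries, a ratio of 0.61 with a 95% counting interval of 0.094 to 3.12. miR-449a-5p, the main product of its hairpin, held 1, 3 and 3 counts in Dicer1-ifKO replicates 1, 2 and 3, and 3, 2 and 7 counts in WT replicates 1, 2 and 3, a ratio of 0.59 with a counting interval of 0.20 to 1.63. miR-449c-5p held 1 count in Dicer1-ifKO and 3 in WT (ratio 0.34, counting interval 0.0064 to 4.20). No difference was detectable at this depth. miR-449a-3p and miR-449c-3p held 0 counts in every library, which allows up to 0.021 CPM over the 3 libraries of each genotype (3 counts).

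The miR-449 counts also filled the row of their host gene. The Cdc20b span, introns included, held 1, 3 and 5 counts in Dicer1-ifKO replicates 1, 2 and 3, and 5, 2 and 8 counts in WT replicates 1, 2 and 3, while the miR-449 rows summed to 1, 3 and 4, and 5, 2 and 8. The span thus held 1 count, in Dicer1-ifKO replicate 3, beyond those of the miRNAs. The miR-449b row outside the rule held 0 counts in all 6 libraries.

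Markers of the epithelia in which miR-34b/c and miR-449 are known to be high were looked up among the gene spans. Spans of mRNA genes in small RNA libraries do not measure how many such cells the tissue held. Of a list of 16 genes of choroid plexus, ependyma and motile cilia, such as Folr1, Kl and Foxj1, 14 had a span row, all 14 had a count in some library, and 0 reached 10 counts in every library. Without Cdc20b, the list summed to 19 to 21 counts (0.395 to 0.458 CPM) in Dicer1-ifKO libraries and 22 to 24 counts (0.460 to 0.517 CPM) in WT libraries. Prlr held 2, 7 and 6 counts in Dicer1-ifKO replicates 1, 2 and 3, and 5, 7 and 8 in WT. Folr1 leaned the other way, with 7, 5 and 7 counts in Dicer1-ifKO and 2, 6 and 6 in WT. Kl held 6, 6 and 5 counts in Dicer1-ifKO and 12, 3 and 4 in WT. Foxj1, the master factor of motile cilia, held 0 counts in every Dicer1-ifKO library and 1, 0 and 1 in WT. Ccdc153, of ependyma, held 0, 1 and 0 counts in Dicer1-ifKO and 0 in every WT library. Counts as low as those of Foxj1 and Ccdc153 give no direction. The part of these cells in the levels of the family was not tested.

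The miRNAs listed for choroid plexus and other epithelia lay on the other side of 0. Of 20 listed rows 8 were tested and 0 were called, against 6.59% of miRNA rows lower and 0% higher. All 8 lay below 0, as did 75.5% of all tested miRNA rows. The median of the 8 was -0.70, against -0.24 over all tested miRNA rows. With TMM over the miRNA rows 7 lay below 0 and the median was -0.46. With 1 library left out the median ran from -0.99 without WT replicate 2 to -0.44 without WT replicate 3. Rows of low level entered this median. miR-200a-3p, miR-183-5p and miR-141-3p averaged at most 0.93 CPM in either genotype, and their log2 changes had an SE of 0.65 to 0.76. miR-204-5p, the abundant miRNA of choroid plexus, stood at 217, 235 and 222 CPM in Dicer1-ifKO replicates 1, 2 and 3, and at 336, 319 and 341 CPM in WT replicates 1, 2 and 3 (log2 -0.56 ± 0.13 SE, edgeR adjusted p = 0.067). Its groups did not overlap, as in 33.9% of miRNA rows on the lower side. It was called without WT replicate 1 (edgeR adjusted p = 0.020), where 70 miRNA rows were lower, and in 0 of the other 13 alternatives (adjusted p of 0.11 to 0.79). With TMM over the miRNA rows its log2 change was -0.32. miR-211-5p, also listed for choroid plexus, averaged 0.949 ± 0.173 CPM in Dicer1-ifKO and 0.964 ± 0.110 CPM in WT (SD, n = 3 each). Its log2 change was -0.018 (edgeR adjusted p = 0.99). miR-200b-3p, of epithelia, averaged 1.37 ± 0.69 CPM in Dicer1-ifKO and 2.16 ± 0.74 CPM in WT, and miR-182-5p, of sensory epithelia, 2.34 ± 0.11 CPM in Dicer1-ifKO and 5.51 ± 4.16 CPM in WT (SD, n = 3 each). Neither passed (edgeR adjusted p = 0.90 and 0.81). For miR-182-5p the log2 change was -1.23, or -0.48 without WT replicate 1, and it was called lower without WT replicate 2 (log2 -1.63, edgeR adjusted p = 0.014).

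Other miRNAs linked to p53, by induced transcription or by processing, were not called either. Of 22 listed rows 11 were tested, 0 fell and 0 rose, against 6.59% and 0% of miRNA rows. Of these 11, 8 lay below 0 and 3 above, where 75.5% and 24.5% of miRNA rows did. The median was -0.06, or 0.18 with TMM over the miRNA rows, and with 1 library left out it ran from -0.23 without Dicer1-ifKO replicate 1 to 0.043 without WT replicate 3. The most abundant were miR-143-3p of smooth muscle, at 332 ± 37.6 CPM in Dicer1-ifKO and 300 ± 88.0 CPM in WT (log2 0.15, edgeR adjusted p = 0.96), and both rows of miR-16-5p, a broadly expressed miRNA that slows the cell cycle, with log2 changes of -0.06 and -0.04 (SD, n = 3 each).

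Of 30 rows of neuronal miRNAs, all tested, 1 fell and 0 rose, against 6.59% and 0% of miRNA rows. Some rows of this list are of 1 mature miRNA listed at several places, such as those of miR-9-5p, miR-124-3p and miR-138-5p. The 30 rows are thus not 30 separate miRNAs. The median was -0.20, or 0.04 with TMM over the miRNA rows, and with 1 library left out it ran from -0.34 without Dicer1-ifKO replicate 1 to 0.020 without WT replicate 3. The called row was miR-212-3p, induced by neuronal activity, at 31.8 ± 2.93 CPM in Dicer1-ifKO and 52.9 ± 5.04 CPM in WT (SD, n = 3 each; edgeR adjusted p = 0.048). It was called by DESeq2 (adjusted p = 0.037) and with the miRNA rows fitted alone (edgeR adjusted p = 0.021). It was not called with other scalings (edgeR adjusted p of 0.096 to 0.38), without the count filter (0.20) or with the replicate block (0.22). With 1 library left out, 5 rows of the list fell without WT replicate 1 and 0 without any other. Neural miRNAs were abundant in all libraries of this tissue, with the most abundant row of miR-128-3p at 604 ± 39.2 CPM in Dicer1-ifKO and 811 ± 71.9 CPM in WT and the rows of miR-9-5p between 337 and 343 CPM in the mean of either genotype.

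Across the 6 libraries, miR-34a-5p and miR-34c-5p varied together (Pearson's r of log2 CPM 0.92), and so did miR-34b-5p and miR-34c-5p (r 0.81). In contrast, miR-34b-3p, of the same hairpin as miR-34b-5p, had r -0.33 with miR-34c-5p. The miR-34b-5p row held 32 to 55 counts per library, and whether reads of miR-34c-5p entered it was not tested. Among 389 other miRNA rows with a mean of at least 50 counts, the rows most like miR-34c-5p were miR-3071-3p and miR-136-5p (r 0.98 each), miR-153-3p (0.98), miR-126a-5p (0.97) and miR-126b-3p (0.97). Of the rows of miR-135a-5p, that on chromosome 9 was among the 5 most like miR-34a-5p and that on chromosome 10 was not. The rows most like miR-34a-5p were miR-135a-5p on chromosome 9 (r 0.97), miR-136-5p (0.89), miR-3071-3p (0.89), miR-376b-5p (0.85) and miR-101a-5p (0.84). None of these 8 rows was called, and their log2 changes ran from 0.29 to 0.71. These values share the 6 libraries and their scaling, and miR-136-5p with miR-3071-3p, like miR-126a-5p with miR-126b-3p, are rows of opposite strands of 1 place with nearly equal counts, so they are not separate likenesses.

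**Figure D5:**
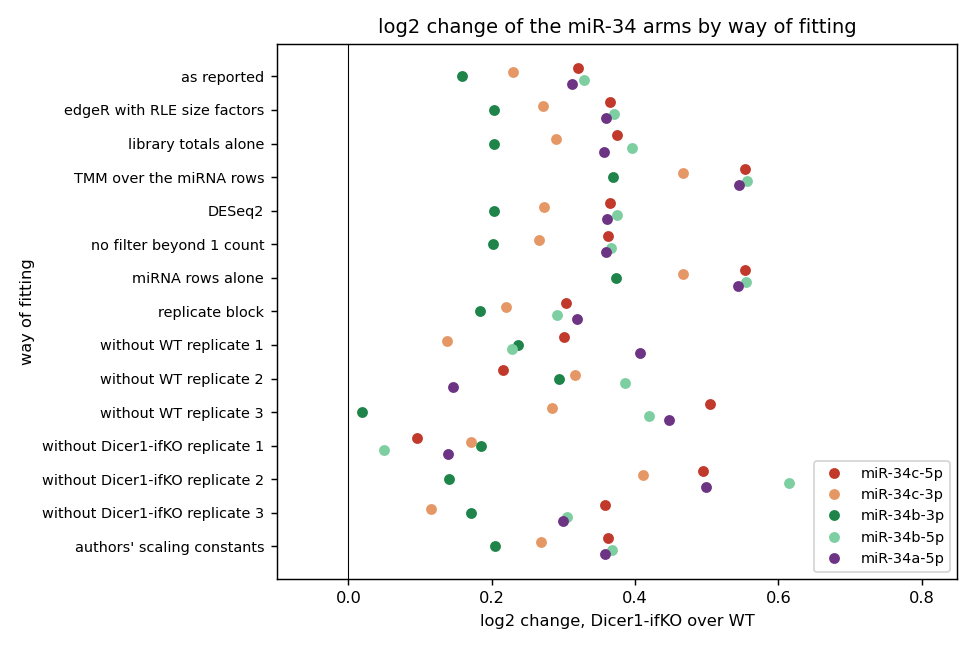
log2 change of Dicer1-ifKO over WT for the 5 tested arms under each way of fitting, one line per way and one colour per arm. All points lie above 0, from 0.019 for miR-34b-3p without WT replicate 3 to 0.62 for miR-34b-5p without Dicer1-ifKO replicate 2.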

How the data were processed

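Per the labels' protocols, total hippocampal RNA of 3 mice was pooled per library and prepared with the Illumina TruSeq small RNA protocol. The design text gives 12 mice per genotype, while these pools hold 9. The deposited raw columns hold whole-number counts with no scaling. The deposited normalized columns hold a signal, which their values show to be the raw counts times 1 constant per library, and only those constants were used. Per the submitters' processing notes, the tools were SAMtools 0.1.18, BWA, DESeq2 and CASAVA 1.8.2, and the build was GRCm38 (mm10). The program that counted reads, its strand setting and its annotation are not named.

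Repeated transcript spans of a gene with identical counts were counted once (18083 rows dropped). The test was edgeR 4.0.16 in R 4.3.3: filterByExpr (minimum count 10), TMM, then a robust glmQLFit with a two-sided glmQLFTest, adjusted by Benjamini-Hochberg across 6539 features. SE and 95% intervals were derived from the F statistic. Ratios and arm shares were compared by exact permutation of the 6 libraries. All 10 member rows are named, with up to 3 abundant rows and every called row of each list (p53-linked, epithelial and neuronal miRNAs, epithelial marker genes) and the 5 miRNA rows most like miR-34a-5p and miR-34c-5p by Pearson's r (prior count 2). miR-211-5p is named besides, as the other choroid plexus miRNA listed. Foxj1 and Ccdc153 are named for motile cilia and ependyma, and were not picked by their counts. Members and lists were chosen with earlier results of these data known. Intervals cover counting error only where they come from counts.

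Alternatives were other scalings, DESeq2 1.42.0, no count filter, a fit of miRNA rows alone, a replicate block and leaving out each library, and, chosen after the data were seen, the authors' constants and the ratio of the miR-34c to the miR-34b hairpin. Libraries of a genotype differed by far more than counting noise (chi-square per degree of freedom of 22.2 to 66.9 over miRNA rows).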

Additional observations from a re-analysis of the deposited data

How the results depend on the processing

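In 14 alternatives, which reuse the same libraries, the 5 tested arms kept log2 changes above 0. The 1 call was that of miR-34c-5p when the miRNA rows were fitted alone (log2 0.55), which made 1 member called. In that fit 11 miRNA rows were called higher, against 0 with all features. The count of miRNA rows called lower was 36, against 16 on library totals alone, 8 with TMM over the miRNA rows and 3 with the replicate block. Leaving out 1 library gave 1 to 70 such rows. For WT replicates 1, 2 and 3 left out in turn they were 70, 13 and 14, and for Dicer1-ifKO replicates 1, 2 and 3 they were 19, 1 and 8. The cause was not tested. Replicate numbers are not stated to pair the libraries. Same-numbered libraries had correlations of their miRNA deviations of -0.046, 0.26 and -0.26 for numbers 1, 2 and 3. Between libraries of different numbers the correlations ran from -0.37 to 0.43. With 3 libraries per genotype these values cannot decide whether the libraries were paired. With the replicate block the 5 arms had log2 changes of 0.18 to 0.32, with 0 called, and miR-34a-5p over the cluster differed by 0.031. With 1 library left out, the differences between genotypes ran from -0.081 to 0.14 for miR-34a-5p over the cluster and from -0.13 to 0.39 for the miR-34c over the miR-34b hairpin (log2), and from 0.38 to 2.15, from -1.65 to 4.32 and from -0.14 to 0.27 percentage points for the 5p shares of miR-34a, miR-34b and miR-34c. Depth limits the miR-449 rows and miR-34a-3p, which held 0 to 7 counts per library.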
